A study of Homo sapiens with 33 samples.

Results

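The keratin genes of the human genome were described in EZH2-deficient human embryonic stem cells (ESCs). Keratin genes were taken as the genes whose symbol is KRT followed by a number and, in some, a letter A to C, on chromosome 12 or 17. The rule used names and positions and no measured value, and found 55 of the 35805 genes listed in the RNA table. The ChIP table held 54 of the 55, since KRT31 had no window, with 178 of 153958 promoter windows.

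The cells were H9, an established human ESC line, grown on mouse feeder cells and sorted by flow cytometry for SSEA4, a surface marker of undifferentiated cells. RNA was sequenced in 12 libraries, 3 for each of 4 genotypes. Wild-type (EZH2+/+) ESCs were the parental line. Heterozygous (EZH2-/+) ESCs carried a CRISPR/Cas9 mutation on 1 allele. Null (EZH2-/-) ESCs were made from a heterozygous line that had received an EZH2 transgene by piggyBac transposition, and were targeted again on the remaining allele. Restored (EZH2-/- +EZH2) ESCs were null ESCs in which doxycycline (DOX) induced that transgene, so that DOX and EZH2 restoration differ together between both groups and cannot be told apart. The mutant lines were clonal, so that a property of a clone and the genotype cannot be told apart either. The same 4 genotypes were profiled by ChIP-seq for H3K27me3, H3K27ac, H3K4me3 and H3K4me1, with input chromatin, and EZH2 itself was profiled in wild-type ESCs.

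Keratins are the intermediate filament proteins of epithelial cells. A type I (acidic) keratin, encoded on chromosome 17 except for KRT18, assembles with a type II (basic) keratin, encoded on chromosome 12, so that filaments need both partners. KRT8 and KRT18 are the primary pair of simple epithelia and are also made by the early embryo and by cultured ESCs, KRT7 and KRT19 are added in ducts, glands and trophoblast, and KRT20 belongs to the gut lining and the urothelium. The other keratins build the filaments of stratified epithelia, of activated or wounded epidermis, and of hair and nail. EZH2 is the catalytic subunit of PRC2, which writes H3K27me3, a mark of repressed promoters, while H3K4me3 and H3K27ac are marks of active promoters and H3K4me1 is typical of enhancers.

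Of the 55 genes, 29 were type I and 26 type II. They comprised 5 simple epithelial, 18 stratified epithelial, 5 activation, 9 hair follicle sheath and 17 hair and nail keratins, together with KRT222, a keratin-like gene of little known function. All lie in the human build GRCh38. KRT8 lies on chr12:52897187-52949954 on the minus strand and KRT18 on chr12:52948871-52952901 on the plus strand, and their annotated bodies overlap. KRT7 lies on chr12:52232520-52252186, KRT80 on chr12:52168996-52192000, KRT19 on chr17:41523617-41528308, KRT15 on chr17:41513743-41522529, KRT17 on chr17:41619437-41624842 and KRT10 on chr17:40818117-40822595.

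Promoter sequences of 34 of the 55 genes were found in the RefSeq table for GRCh38, from 250 bases before to 50 bases after the annotated start. There was no entry for KRT7, KRT18, KRT19, KRT15, KRT17 or KRT80. Promoters of 4 of the genes with an entry are shown, each for a trait met below, and they do not span the range of keratin chromatin. KRT8 was the most abundant keratin, KRT10 was the epidermal keratin with the most RNA, KRT20 was the simple keratin without appreciable RNA, and KRT9 was among the 3 keratins with the most H3K27me3. All run 5′ to 3′ on the minus strand, at chr12:52926420-52926719 for KRT8, chr17:40822565-40822864 for KRT10, chr17:40885193-40885492 for KRT20 and chr17:41572010-41572309 for KRT9. Capitals mark matches, on either strand, to the motifs named in the next paragraph.
KRT8: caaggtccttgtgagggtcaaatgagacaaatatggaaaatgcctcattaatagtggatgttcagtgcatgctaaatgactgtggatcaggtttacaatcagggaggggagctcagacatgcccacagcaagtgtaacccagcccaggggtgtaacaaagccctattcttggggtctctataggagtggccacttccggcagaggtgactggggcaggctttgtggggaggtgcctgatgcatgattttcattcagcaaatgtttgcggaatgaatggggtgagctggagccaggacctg
KRT10: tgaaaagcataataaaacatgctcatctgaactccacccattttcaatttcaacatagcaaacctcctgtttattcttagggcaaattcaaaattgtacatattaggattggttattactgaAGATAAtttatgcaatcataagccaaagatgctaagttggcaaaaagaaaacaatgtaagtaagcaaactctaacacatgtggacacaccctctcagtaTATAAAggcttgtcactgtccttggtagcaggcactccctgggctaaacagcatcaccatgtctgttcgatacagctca
KRT20: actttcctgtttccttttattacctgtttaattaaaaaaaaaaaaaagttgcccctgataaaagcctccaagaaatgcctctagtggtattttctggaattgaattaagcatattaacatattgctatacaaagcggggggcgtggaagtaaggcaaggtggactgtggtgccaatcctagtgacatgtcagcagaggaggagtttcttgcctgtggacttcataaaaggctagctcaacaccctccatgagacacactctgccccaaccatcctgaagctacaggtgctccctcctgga
KRT9: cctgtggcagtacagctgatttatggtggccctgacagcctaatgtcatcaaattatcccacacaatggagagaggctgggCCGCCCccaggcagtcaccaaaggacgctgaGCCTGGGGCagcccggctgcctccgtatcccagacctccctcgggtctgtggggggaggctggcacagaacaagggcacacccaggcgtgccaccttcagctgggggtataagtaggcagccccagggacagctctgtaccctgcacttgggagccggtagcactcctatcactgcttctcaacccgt

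The 34 promoters were poor in CpG, with a median of 2 CpG dinucleotides (range 0 to 8) against a median of 14 over 27305 promoters, and their median GC content was 45.7% against 58.3%. A TATA box written as TATAAA occurred in 20 of the 34, or 58.8%, against 11.95% of all promoters. It is seen in KRT10, where it began 29 bases before the start. The GATA motif AGATAA occurred in 14, or 41.2%, against 10.5% of all promoters, and in KRT10 it began 128 bases before the start. The SP1 motif GGGCGG occurred in 6 (17.6% against 44.6%), the TFAP2 motif GCCNNNGGC in 5 (14.7% against 23.0%) and the AP-1 motif TGANTCA in 0 (against 7.76%). In KRT9 the SP1 motif began 169 bases and the TFAP2 motif 138 bases before the start. Both strands were searched, and a match describes letters only. The KRT8 entry starts 21.4 kb upstream of the canonical KRT8 transcript, at an alternative first exon that the ChIP data also cover.

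RNA libraries held 25019064 to 56845644 reads, and values are RPM (reads per 1000000 reads of the library). A count of 3 reads, the floor for calling a gene detected, was worth 0.0528 to 0.120 RPM, and covers counting error only. EZH2 RNA was 59.5 to 68.6 RPM in wild-type, 45.7 to 55.4 RPM in heterozygous, 8.65 to 11.5 RPM in null and 256 to 385 RPM in restored ESCs, so the restored cells held more EZH2 RNA than the parental line. All 6 pluripotency markers were detected in every genotype and summed to 3238 to 3532 RPM in null and 2949 to 3759 RPM in wild-type libraries, but single markers differed. NANOG (1.98), POU5F1 (0.92), the most abundant, and DPPA4 (0.65, named after its values were seen) were higher in null than in wild-type ESCs on the log2(RPM + 0.1) scale. SOX2 (-1.05) and PODXL (-0.82) were lower. Of all genes tested, 12.6% were higher and 18.8% lower in that comparison. Against restored 0 of the 6 passed, where 2.63% of all genes were higher and 0.524% lower. Between restored and wild-type ESCs 3 of the 6 were higher and 1 lower (3.40% and 6.90% of all genes).

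Most keratins were silent. No read fell on 32 of the 55 genes in any library, a further 14 had a few reads and a mean below 0.1 RPM, and 9 passed the filter of a mean of 0.1 RPM and were tested. Simple epithelial keratins carried 87.8% to 97.3% of the RNA of all 55 genes per kilobase of transcript in each library, and 97.9% to 99.4% with KRT222 left out. Among the tested genes were 4 of the 5 simple keratins, 3 of 18 stratified keratins (KRT10, KRT15, KRT80), 1 of 5 activation keratins (KRT17) and KRT222, and none of the 26 sheath, hair and nail keratins. Those that passed did so in part through the group in which they were highest, and the 46 others are accounted for further on. KRT80 reached the filter only through null ESCs. Its means were 0 RPM in wild-type, 0.0369 in heterozygous, 0.0480 in restored and 0.393 in null ESCs.

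KRT8, the type II keratin of simple epithelia, was the most abundant keratin in every library. Its level was 228, 290 and 270 RPM in the wild-type libraries, 267, 511 and 209 RPM in heterozygous, 593, 1176 and 1052 RPM in null, and 453, 371 and 395 RPM in restored. All 3 null libraries were above every other library, null library 1 was the lowest of its group, and heterozygous library 2 stood above the remainder of its group. KRT8 was higher in null than in wild-type ESCs by 1.79 ± 0.31 (SE) on the log2(RPM + 0.1) scale, a fitted fold of 3.45 (limma, adjusted p = 0.00109, n = 3 and 3). Against restored the difference was 1.16 ± 0.31, a fold of 2.23, and it missed the threshold of 0.05 (limma, adjusted p = 0.0614). With the library number as a block, since libraries of the same number deviated together, the same difference passed (limma, adjusted p = 0.0200). It also passed without heterozygous library 2 or 3 or null library 1, with an adjusted p of 0.0211, 0.0298 and 0.0196 in limma. With any 1 library left out, the adjusted p ran up to 0.285 in limma. In bulk RNA, more cells of a type that makes a keratin and more keratin RNA per cell cannot be told apart.

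KRT18, the type I partner of KRT8, followed the same order. It stood at 120, 164 and 160 RPM in wild-type, 172, 289 and 141 RPM in heterozygous, 385, 694 and 647 RPM in null, and 305, 258 and 266 RPM in restored libraries. The null libraries again lay above all others, and the restored libraries lay above all wild-type libraries. KRT18 was higher in null than in wild-type ESCs by 1.92 ± 0.27 (fold 3.79, limma, adjusted p = 0.000320). The difference from restored was 1.01 ± 0.27 (fold 2.02, limma, adjusted p = 0.0609, and 0.0187 with the library block), and like that of KRT8 it passed without heterozygous library 2 or 3 or null library 1 (limma, adjusted p = 0.0268, 0.0325 and 0.0189). With any 1 library left out, the adjusted p of that difference ran up to 0.279 in limma. KRT18 was the 1 keratin that also passed the test between restored and wild-type ESCs, by 0.91 ± 0.27 (limma, adjusted p = 0.0486, and 0.0144 with the block). That call is at the threshold and was lost without any 1 of the wild-type or restored libraries, heterozygous library 1 or null library 2 or 3, with an adjusted p of up to 0.171 in limma. For KRT8 the same difference was 0.63 ± 0.31 (limma, adjusted p = 0.219, and 0.0355 when only these genotypes were fitted), and the ranges did not overlap. Reads on KRT8 and KRT18 may be shared with near-identical processed pseudogenes, of which GENCODE release 44 holds 51 and 68 and the deposited RNA values list 0, and reads in the overlap of the 2 genes were counted without strand.

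KRT19, a type I keratin of ducts and of the early embryo, had no call in the fit reported. Its level was 65.1, 89.5 and 81.8 RPM in wild-type, 54.3, 84.0 and 84.3 RPM in heterozygous, 59.6, 131 and 167 RPM in null, and 39.4, 36.1 and 79.98 RPM in restored libraries. Null library 1 was below all wild-type libraries, the other two null libraries were above them, and the null and restored ranges overlapped. The difference between null and restored was 1.17 ± 0.37 (limma, adjusted p = 0.113), and with the library block it passed (limma, adjusted p = 0.0133). It also passed without null library 1, at 1.61 (limma, adjusted p = 0.0177). With any 1 library left out, the adjusted p ran up to 0.385 in limma. Against wild-type the difference was 0.48 ± 0.37 (limma, adjusted p = 0.340).

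KRT7, the type II keratin of glands and trophoblast, had no call in any comparison. It stood at 7.04, 1.80 and 4.48 RPM in wild-type, 8.32, 3.24 and 10.3 RPM in heterozygous, 2.73, 2.78 and 4.10 RPM in null, and 2.47, 2.25 and 2.72 RPM in restored libraries. The null libraries lay inside the wild-type range, and the fitted difference was -0.29 ± 0.47 (limma, adjusted p = 0.671). Against restored it was 0.33 ± 0.47 (limma, adjusted p = 0.764). KRT20, the gut keratin, had 1 read in all 12 libraries together.

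KRT17, KRT15 and KRT80 stood far lower than the simple pair and were highest in null ESCs. KRT17, an activation keratin of wounded epidermis, stood at 0.222, 0.152 and 0.240 RPM in wild-type, 0.0490, 0.0648 and 0.125 RPM in heterozygous, 0.528, 0.788 and 1.13 RPM in null, and 0.180, 0.161 and 0.160 RPM in restored libraries. The null libraries did not overlap with any other genotype and rested on 30, 42 and 38 reads. KRT17 rose in null ESCs by 1.72 ± 0.31 against restored (limma, adjusted p = 0.0129) and by 1.54 ± 0.31 against wild-type (limma, adjusted p = 0.00315). Without null library 2 or 3, or restored library 2, the former call was lost, with an adjusted p of 0.0703, 0.0541 and 0.0523 in limma.

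KRT15, a type I keratin of basal cells, had 1, 0 and 4 reads in the wild-type libraries, 4, 7 and 1 reads in heterozygous, 53, 28 and 42 reads in null and 7, 8 and 6 reads in restored. In RPM this was 0.932, 0.526 and 1.25 in the null libraries against 0.180, 0.214 and 0.240 in the restored libraries, and the groups did not overlap. KRT15 rose by 2.86 ± 0.39 against wild-type (limma, adjusted p = 0.000280) and by 1.62 ± 0.39 against restored (limma, adjusted p = 0.0417). The latter call was lost without a filter, and without any 1 of the 3 null or 3 restored libraries, wild-type library 1 or 2 or heterozygous library 1, with an adjusted p of up to 0.1498 in limma. Between restored and wild-type ESCs KRT15 differed by 1.24 (limma, adjusted p = 0.0628, 0.0447 with the block, and 0.0334 without heterozygous library 3).

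KRT80, a type II keratin of several differentiated epithelia, had 0 reads in all 3 wild-type libraries, 0, 1 and 5 reads in heterozygous and 10, 36 and 11 reads in the null libraries. Its mean of 0.393 RPM in null ESCs was 5.66-fold the mean floor of 3 reads in the wild-type libraries, a bound that was not tested. The fitted difference from wild-type was 2.17 ± 0.39, a fold of 4.50 (limma, adjusted p = 0.00155). Against restored ESCs, where it stood at 0.0771, 0.0268 and 0.0400 RPM, the difference was 1.62 ± 0.39 (limma, adjusted p = 0.0440). That call was lost without null library 2 (1.23, limma, adjusted p = 0.227), and also without null library 3, any restored or wild-type library or heterozygous library 1 or 2, with a pseudocount of 1 RPM, without a filter, and when only these genotypes were fitted.

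KRT10, the type I keratin of differentiating epidermis, and KRT222 had no call. KRT10 stood at 11.9, 9.38 and 11.2 RPM in wild-type, 12.6, 13.6 and 11.4 RPM in heterozygous, 14.1, 12.2 and 23.4 RPM in null, and 11.8, 11.3 and 14.1 RPM in restored libraries. Null and restored libraries overlapped, and null library 3 was the highest of all. Against wild-type ESCs the difference was 0.56 ± 0.22 (limma, adjusted p = 0.0700, 0.0325 with the block, and 0.0377 without null library 2). KRT10 overlaps TMEM99 on the opposite strand, and reads were counted without strand, so that KRT10 reads may belong in part to TMEM99. KRT222 averaged 78.2 RPM in wild-type, 77.6 RPM in heterozygous, 77.2 RPM in null and 71.1 RPM in restored ESCs. It overlaps SMARCE1 on the same strand, so that its reads may belong in part to that gene, and its correlation with SMARCE1 over 12 libraries was 0.973.

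**Figure D1:**
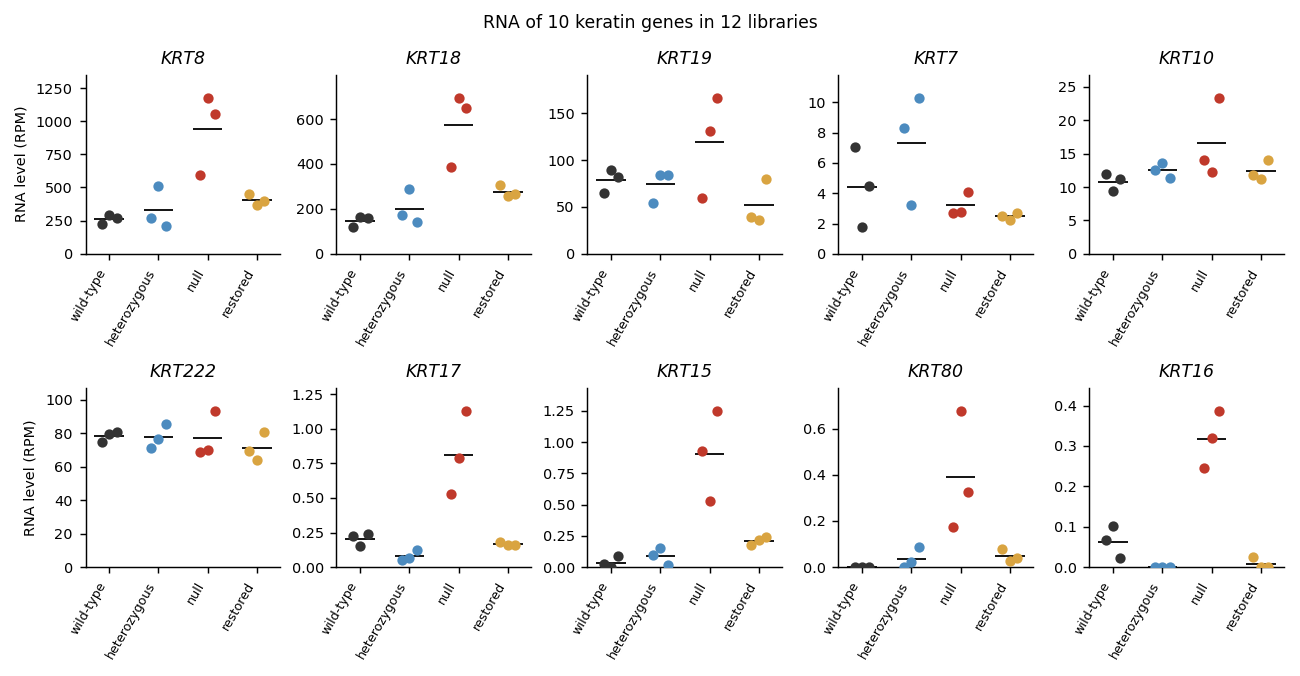
RNA level in RPM (y axis, linear, a scale for each gene) of 10 keratin genes in the 3 libraries of each genotype (points, in library order) with the mean as a line. The null libraries lie above all others for KRT8, KRT18, KRT17, KRT15, KRT80 and KRT16, whereas those of KRT19, KRT7 and KRT222 overlap with wild-type.

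Counted over the 9 tested keratins, 3 were higher and 0 lower in null than in restored ESCs, where 2.63% of the 20608 genes tested were called higher and 0.524% lower. The count ran from 0, without null library 2 or 3 or restored library 2, to 5, without null library 1 or heterozygous library 3. With the library block 6 were higher, against 6.19% of all genes. The null and restored ranges did not overlap for 6 of the 9, all higher, against 13.5% of all genes. The median difference of the 9 was 1.16, beside 0.02 over all genes. Against wild-type, 5 were higher and 0 lower, where 12.6% of all genes were called higher and 18.8% lower, with the block 6 were higher against 17.3%, and the median was 1.54 beside -0.13 over all genes. The median with KRT80 at its bound was also 1.54. Ranges did not overlap for 6 of the 9, all higher, against 20.6% of all genes. All genes together shifted by -0.13 in that comparison, and by -0.15 between restored and wild-type. The keratin differences and p-values given are not centred on that shift. The null libraries serve in 2 of these comparisons and the wild-type libraries in 3, so the comparisons are not independent. KRT80, which reached the filter only through null ESCs, is among the genes called higher in null ESCs and among those without overlap. Its part in these counts and medians is therefore no separate support.

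Between heterozygous and wild-type ESCs limma called 0 keratins, against 0.180% of genes higher and 0.966% lower. At an unadjusted p under 0.05 there was 1, KRT17, at a difference of -0.78 with ranges that did not overlap, against 11.9% of all genes lower without overlap. With the block limma called 0, against 0.718% of genes higher and 2.16% lower. Between restored and wild-type ESCs 1 keratin was higher and 0 lower, against 3.40% and 6.90% of all genes, and with the block 2 were higher against 6.26%. Ranges did not overlap for 4 of the 9, all higher, against 9.77% of all genes. The study calls the RNA libraries of a line biological replicates, and the labels do not say whether these were separate cultures, so the p-values measure the spread between these libraries.

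**Figure D2:**
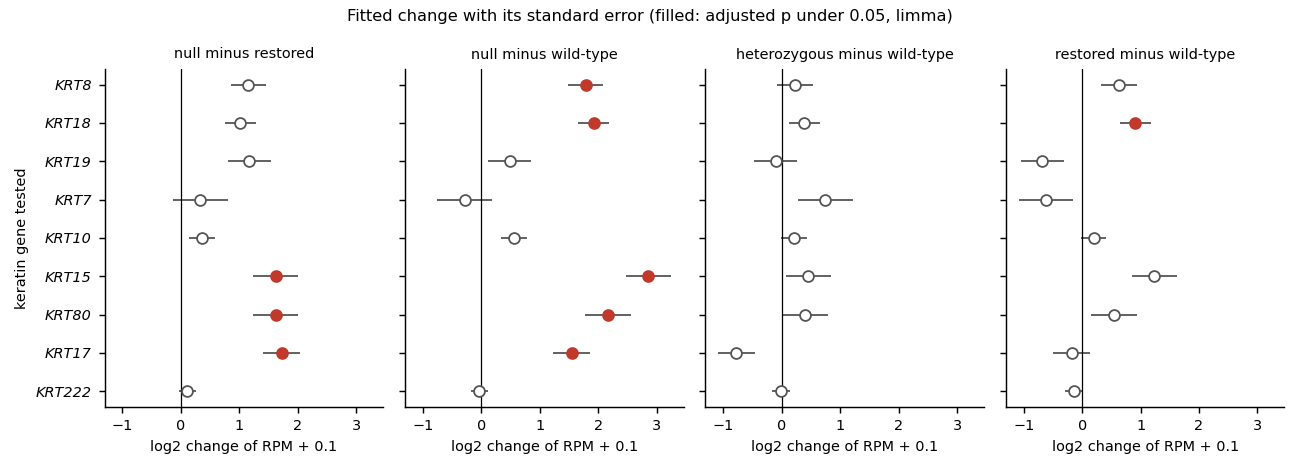
Fitted difference on the log2(RPM + 0.1) scale (x axis) with its standard error for the 9 keratins tested, in each of the 4 comparisons, with filled points for an adjusted p under 0.05. Filled points number 3 for null against restored, 5 for null against wild-type, 0 for heterozygous and 1 for restored against wild-type.

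The 14 keratins with reads that were not tested had most of those reads in null ESCs. Together with the 32 genes without a read they held 28, 39 and 28 reads in the null libraries, 4, 5 and 4 in wild-type, 4, 1 and 2 in heterozygous and 3, 1 and 0 in restored. The 3 null counts lay above all others. KRT16, the type I partner of the KRT6 proteins in wounded epidermis, is singled out here after its values were seen. It had 14, 17 and 13 reads in the null libraries, 3, 4 and 1 in wild-type, 0 in each heterozygous library and 1, 0 and 0 in restored, and at a mean of 0.0972 RPM it fell just short of the filter. KRT6A, also chosen after its values were seen, had 5, 5 and 3 reads in the null libraries and 0 in all others, and shares much of its sequence with KRT6B and KRT6C.

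Because keratins act in pairs, the balance of the types was compared per kilobase of canonical transcript. KRT8 stood at 147 ± 17.8 and KRT18 at 105 ± 17.1 RPM per kilobase in wild-type ESCs (SD, n = 3), and at 527 ± 172 and 407 ± 118 in null ESCs. KRT19 followed with 56.7 in wild-type and 85.7 in null ESCs, then KRT222 with 31.2 and 30.8, KRT10 with 5.05 and 7.73, and KRT7 with 2.73 and 1.97. The order of KRT8 and KRT18 depends on the length used, since over the union of all annotated exons KRT18 was above KRT8 in every library. The ratio of type II to type I RNA per kilobase, leaving out KRT222, was 0.904 ± 0.0491 in wild-type, 0.912 ± 0.160 in heterozygous, 1.05 ± 0.0583 in null and 0.961 ± 0.0718 in restored ESCs. The null ratios did not overlap with the wild-type ratios (exact permutation test, two-sided p = 0.1, the smallest that 3 against 3 libraries allow). The KRT8 to KRT18 ratio in RPM, which needs no length to compare genotypes, was 1.78 ± 0.107 in wild-type, 1.60 ± 0.151 in heterozygous, 1.62 ± 0.0763 in null and 1.47 ± 0.0266 in restored ESCs. It was lower in all restored than in all wild-type libraries (exact permutation test, two-sided p = 0.1). Over the 8 comparisons of these ratios the smallest adjusted p was 0.267.

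Over the 12 libraries and 15499 genes that averaged 1 RPM or more, the gene whose log2 level was most like that of KRT8 was KRT18 (Pearson's r = 0.988). It was followed by NEFH, a neurofilament heavy chain (0.976), PORCN (0.976), TAGLN2 (0.968) and LMNA, which encodes lamin A and C (0.968). KRT19 ranked 3592 in likeness to KRT8 (0.490), and KRT7 was negatively correlated (-0.462). The genes most like KRT19 were CTSV (0.916), METRNL (0.902), MYL4 (0.899), NRP1 (0.888) and ART5 (0.886). These values are descriptive, over libraries that differ in genotype and depth, with 3 libraries for each genotype.

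Desmosomes and plakins anchor keratin filaments to the cell membrane. Of the 14 tested genes in that list, 4 were higher and 0 lower in null than in wild-type ESCs, where 12.6% of all genes were higher and 18.8% lower. Against restored 2 were higher and 0 lower, where 2.63% of all genes were higher and 0.524% lower. PKP3, a plakophilin that binds keratins, was 15.0 ± 9.01 RPM in null, 2.17 ± 0.844 RPM in restored and 0.593 ± 0.0909 RPM in wild-type ESCs, higher by 2.60 (limma, adjusted p = 0.0320) and 4.25 (limma, adjusted p = 0.000305). PKP1 was higher by 2.35 and 2.85. EVPL, the plakin envoplakin, was higher than in wild-type by 3.48 (limma, adjusted p = 0.000498). DSP, the plakin that links keratin to the desmosome, was 161 RPM in null against 74.1 RPM in wild-type ESCs (1.12, limma, adjusted p = 0.00586). DSG2, a desmosomal cadherin, was at 113 against 109 RPM. The median difference of the list was 0.59 against restored, beside 0.02 over all genes, and 0.32 against wild-type, beside -0.13. These shares and medians over all genes are the same for each list that follows.

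Among 14 other intermediate filament genes, 6 were higher and 1 lower in null than in wild-type ESCs (12.6% and 18.8% of all genes), and 0 passed against restored (2.63% of all genes higher). VIM, the filament of mesenchymal cells and the most abundant of the list, was the lower gene, at 312 ± 48.7 against 682 ± 129 RPM (-1.12, limma, adjusted p = 0.00440). DES, the muscle filament desmin, was higher by 2.13, NEFH by 1.83 and LMNA by 1.26. The list had a median of 0.57 against wild-type, beside -0.13 over all genes, and 0.48 against restored, beside 0.02.

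Of 13 epithelial junction and surface genes, 8 were higher and 2 lower in null than in wild-type ESCs (12.6% and 18.8% of all genes), with a median of 1.36. Against restored 7 were higher and 0 lower (2.63% and 0.524% of all genes), with a median of 0.93. CLDN7, a tight junction claudin, stood at 37.2 ± 10.8 RPM in null, 7.60 ± 2.60 in restored and 2.24 ± 0.651 in wild-type ESCs (limma, adjusted p = 0.00314 and 9.42e-06). ESRP1, an epithelial splicing regulator, stood at 60.9, 30.2 and 10.1 RPM in the same order. CRB3, a polarity protein, and CLDN4 were also higher in both comparisons. The 2 lower genes, named after their values were seen, were the claudin CLDN3 at 1.75 against 5.64 RPM (limma, adjusted p = 0.00111) and RAB25, a vesicle transport protein, at 3.82 against 7.58 RPM (limma, adjusted p = 0.0353). CLDN6, the most abundant of the list, was at 322 against 299 RPM (0.12, limma, adjusted p = 0.580).

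Of 14 tested epithelial transcription factors, 11 were higher and 0 lower in null than in wild-type ESCs (12.6% and 18.8% of all genes), with a median of 1.89. Against restored 5 were higher and 0 lower (2.63% and 0.524% of all genes), with a median of 1.57. Those with the largest differences from wild-type were OVOL1 (3.31), KLF5 (2.89), GATA2 (2.80) and GRHL2 (2.69), and all 4 were also higher than in restored. TFAP2C, the most abundant of them, stood at 23.7 against 11.2 RPM (1.09, limma, adjusted p = 0.0234). TP63, the regulator of stratified epithelia, had a mean below 0.1 RPM and was not tested.

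Markers of other cell types were also measured. Of 10 trophoblast or amnion markers 7 were tested, and 4 were higher and 0 lower in null than in wild-type ESCs (12.6% and 18.8% of all genes). They were HAND1 (4.86), ISL1 (2.49) and GATA3 (2.29), transcription factors, and GABRP (1.34), the most abundant, and GATA3 is also in the list of epithelial transcription factors. VTCN1, CGA and CGB5 had means below 0.1 RPM. The list summed to 19.9, 64.1 and 49.1 RPM in the null libraries, 13.1, 11.2 and 8.72 in wild-type, 16.5, 9.40 and 13.8 in heterozygous and 12.4, 12.2 and 14.3 in restored. Null library 1, with the least KRT8 of its group, had the lowest sum of its group, whereas heterozygous library 2, with the most KRT8 of its group, also had the lowest.

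Of 5 endoderm markers 3 were higher and 0 lower in null than in wild-type ESCs (12.6% and 18.8% of all genes), the transcription factors GATA6 (3.46), GATA4 (2.93) and SOX17 (1.99). CXCR4, a chemokine receptor, was higher than in restored (2.38, limma, adjusted p = 0.0451), and FOXA2, the most abundant, had no call. The list summed to 81.0, 156 and 76.7 RPM in the null libraries, 32.6, 26.8 and 19.4 in wild-type, 32.6, 94.8 and 11.5 in heterozygous and 31.8, 15.4 and 17.5 in restored. Heterozygous library 2 had the highest sum and the most KRT8 of its group, whereas null library 3 had the lowest sum of its group with 1052 RPM of KRT8, between the values of the other two.

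Of 8 mesenchymal or fibroblast markers 7 were tested, and 4 were higher and 1 lower in null than in wild-type ESCs. TWIST1 (4.48), COL3A1 (4.46), LUM (3.02) and THY1 (1.54), the most abundant, were higher, and COL1A2, named after its values were seen, was lower (-1.07). The sums overlapped, at 296 to 556 RPM in null, 301 to 374 in wild-type, 252 to 312 in heterozygous and 234 to 314 in restored. Of 6 epidermal markers 2 were tested, SFN was higher (1.86, limma, adjusted p = 0.00369), and TP63, IVL, LOR and FLG had means below 0.1 RPM. The epidermal list summed to 3.78 to 8.16 RPM in null, 1.60 to 1.99 in wild-type, 1.10 to 2.72 in heterozygous and 2.88 to 3.50 in restored. Against restored 3 of 7 trophoblast or amnion, 2 of 5 endoderm, 3 of 7 mesenchymal and 0 of 2 epidermal markers were higher and 0 lower (2.63% and 0.524% of all genes). The median differences from wild-type were 1.34, 1.99, 1.54 and 0.97 in that order, beside -0.13 over all genes. The part of such cells in the keratin differences was not tested.

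For chromatin, each value is the RPM in a 5 kb window, 2.5 kb on each side of an annotated start, averaged over all windows of a gene name. A histone value averages 2 libraries per the labels (as log2 values) and gives no spread, so there is no test and a change of 1 on the log2(RPM + 0.1) scale is counted. H3K27me3 libraries held 9.11 M reads in wild-type, 11.9 in heterozygous, 13.8 in null and 15.1 in restored ESCs, and 1 read of a wild-type library was worth 0.110 RPM.

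The median H3K27me3 at keratin promoters was lower in null than in wild-type or restored ESCs. The median over the 54 genes was 2.32 RPM in wild-type, 2.14 in heterozygous, 0.841 in null and 1.76 in restored ESCs, against 1.73, 1.51, 0.842 and 1.44 over all gene names, while keratin input stood at 1.51 to 1.60. H3K27me3 was lower in null than in wild-type ESCs at 51 of the 54, against 77.5% of all 35720 gene names. It was lower by at least 1 at 33, against 42.7% of all names. The median change was -1.31 beside -0.78 over all names. Between restored and wild-type ESCs it was lower by at least 1 at 1 keratin (3.53% of all names), with a median of -0.22 for keratins and -0.22 for all names, and between heterozygous and wild-type at 1 (2.74%). Between null and restored it was lower by at least 1 at 23 (32.9%).

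By class, the median change between null and wild-type ESCs was -1.29 for simple, -1.74 for stratified, -1.17 for activation, -1.36 for hair follicle sheath and -0.94 for hair and nail keratins. Of the 18 stratified keratins 15 were lower by at least 1. KRT6A (2.91 to 3.15 RPM), KRT6C (2.51 to 2.61 RPM) and KRT39 (1.22 to 1.30 RPM), named after their values were seen, were the 3 genes that were not lower.

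Few keratin promoters carried H3K27me3 as a domain. A window was called marked where it exceeded 0.1 on the log2 RPKM scale and input did not. In wild-type ESCs 7 of the 178 keratin windows, or 3.93%, were marked, against 12.2% of all windows. They were 6 windows of KRT7 and 1 of KRT86. The same numbers of windows were marked in heterozygous and restored ESCs and 0 in null ESCs, where 0.774% of all windows were. The marked KRT86 window, an upstream annotated start of this hair keratin, overlaps 4 windows of KRT7, so that the marked windows of both genes lie at 1 locus.

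KRT7 held the most H3K27me3 of all keratins and more than 90.1% of all gene names. Its mean was 7.35 RPM in wild-type, 7.09 in heterozygous, 0.54 in null and 5.07 in restored ESCs, a change of -3.55 in null. KRT86 stood at 5.49, 5.92, 0.652 and 5.08 RPM, and KRT9, the keratin of palms and soles whose promoter is shown above, at 4.06, 4.08, 0.841 and 2.92 RPM. KRT19 had 3.07 RPM in wild-type, 1.20 in null and 2.45 in restored ESCs. KRT8 and KRT18, the keratins with the most RNA, stood at 1.46 and 1.24 RPM in wild-type ESCs, near their input, and each changed by -0.26 in null ESCs.

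The keratins called higher in RNA were not those with the most H3K27me3. KRT15, KRT17 and KRT80 had 1.11, 1.39 and 1.72 RPM in wild-type ESCs, more than 26.1%, 38.1% and 49.7% of all gene names. Their change between null and wild-type ESCs was -0.49, -1.17 and -1.98, beside -0.78 over all names and -0.26 at KRT8 and KRT18. KRT7, with the most H3K27me3 in wild-type ESCs, had no call in RNA. The silent sheath, hair and nail keratins had medians of 2.04 and 2.31 RPM in wild-type ESCs, and none of them reached the RNA filter.

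**Figure D3:**
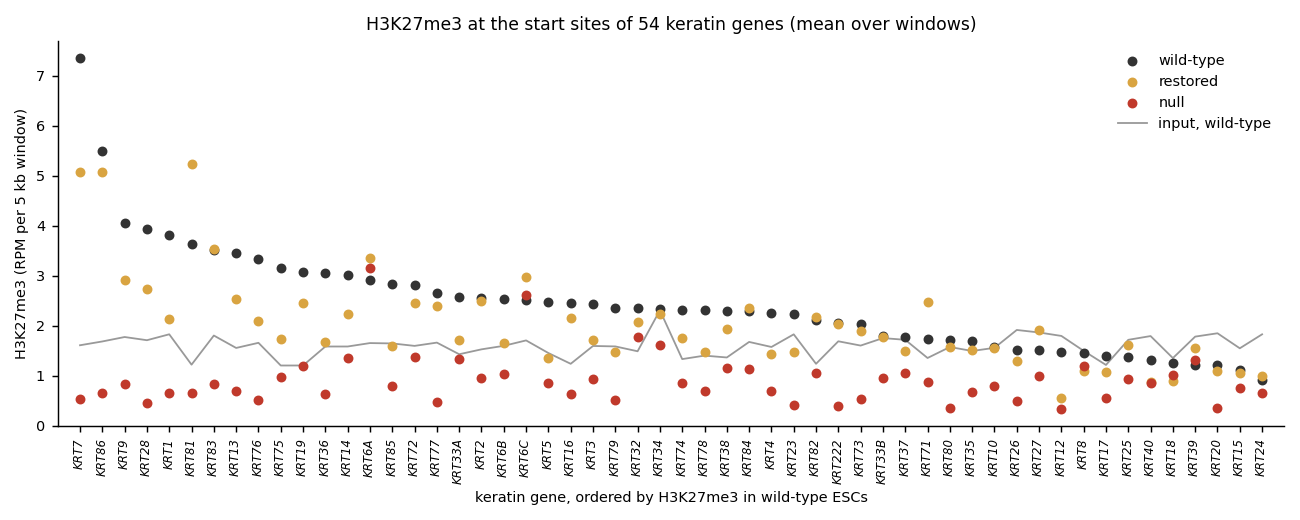
H3K27me3 in RPM per 5 kb window (y axis, linear), the mean over the windows of each of 54 keratin genes, ordered by wild-type (x axis), with 1 point for each genotype plotted and wild-type input as a line. KRT7 leads with 7.35 RPM in wild-type and 0.54 RPM in null ESCs, while KRT8 and KRT18 lie at 1.46 and 1.24 RPM.

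EZH2 itself was profiled in 1 library of 93.2 M reads. The median was 0.122 RPM over keratins and 0.279 RPM over all gene names. The highest values were those of KRT18 (0.684 RPM, above 87.0% of all names), KRT8 (0.629, above 84.7%) and KRT19 (0.573, above 81.6%), followed by KRT7 (0.367, above 63.1%). KRT18, KRT8 and KRT19 also had the most H3K4me3 among keratins together with KRT7, and the order by EZH2 was not the order by H3K27me3. All keratin EZH2 values were below wild-type input, which was at least 1.20 RPM at every keratin. The study describes crosslinked chromatin for EZH2 and native chromatin for the histone marks and input, so this input is no matched control. The order by EZH2 therefore ranks read levels only, and EZH2 binding over background was not tested. EZH2 in the other genotypes was not analysed here.

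At the start of KRT7 the window centred 129 bases upstream held 13.7 RPM of H3K27me3 in wild-type, 14.7 in heterozygous, 0.792 in null and 10.3 in restored ESCs. The same window held 10.7, 12.5, 6.61 and 8.67 RPM of H3K4me3, so that both marks were present there in wild-type, heterozygous and restored ESCs, and H3K4me3 was lowest in null ESCs. H3K27ac was 2.23, 2.35, 3.14 and 1.49 RPM. Windows 14415 and 14675 bases downstream, inside the gene, held 8.24 and 9.45 RPM of H3K27me3 in wild-type and 0.574 and 0.605 in null ESCs. H3K27ac there was 2.98 in wild-type, 6.03 and 6.10 in null, and 2.88 and 3.03 RPM in restored ESCs.

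At the start of KRT19, H3K27me3 was 4.19, 2.67, 1.16 and 3.52 RPM in wild-type, heterozygous, null and restored ESCs. H3K27ac ran in the opposite order, at 2.12, 3.11, 4.56 and 2.95 RPM. H3K4me3 was 9.61, 19.5, 13.7 and 12.9 RPM.

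At the starts of KRT8 and KRT18, H3K4me3 was abundant in all genotypes, with 15.7, 20.3, 18.9 and 16.9 RPM at KRT8 and 12.5, 26.3, 23.1 and 20.1 RPM at KRT18. H3K27ac was 2.503, 2.77, 4.44 and 4.79 RPM at KRT8 and 4.03, 5.17, 5.45 and 7.84 RPM at KRT18. It was no lower in restored than in null ESCs at either start, whereas the RNA of both genes was. Because 8 of the 18 KRT8 windows overlap windows of KRT18, their signals are in part shared.

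The KRT8 window centred on the start of the promoter sequence shown above, 21.4 kb upstream of the canonical start, held 3.67 RPM of H3K27ac in wild-type, 5.21 in heterozygous, 8.04 in null and 6.54 in restored ESCs. H3K4me1 was 7.32, 6.36, 11.7 and 9.92 RPM and H3K4me3 was 2.60, 3.29, 6.26 and 3.88 RPM. H3K27me3 was 2.00, 0.902, 0.686 and 1.61 RPM. All 3 active marks were highest in null ESCs in that window, against an input of 1.33 to 1.67 RPM.

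**Figure D4:**
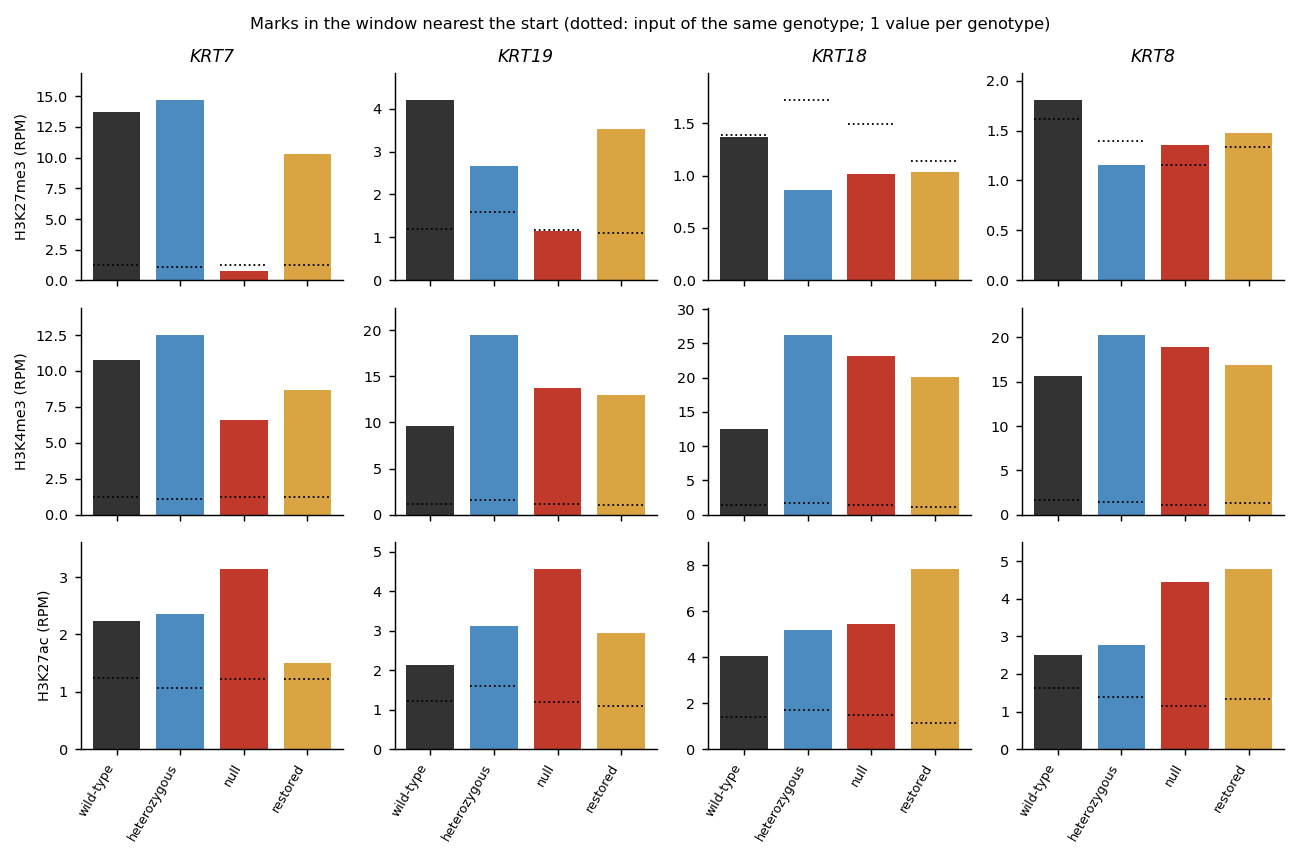
H3K27me3, H3K4me3 and H3K27ac in RPM (y axes, from 0) in the window nearest the canonical start of KRT7, KRT19, KRT18 and KRT8, with 1 bar for each genotype and the input as a dotted line. H3K27me3 at KRT7 is 13.7 RPM in wild-type and 0.792 RPM in null ESCs, whereas at KRT18 it is 1.37 and 1.02 RPM, no higher than input.

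**Figure D5:**
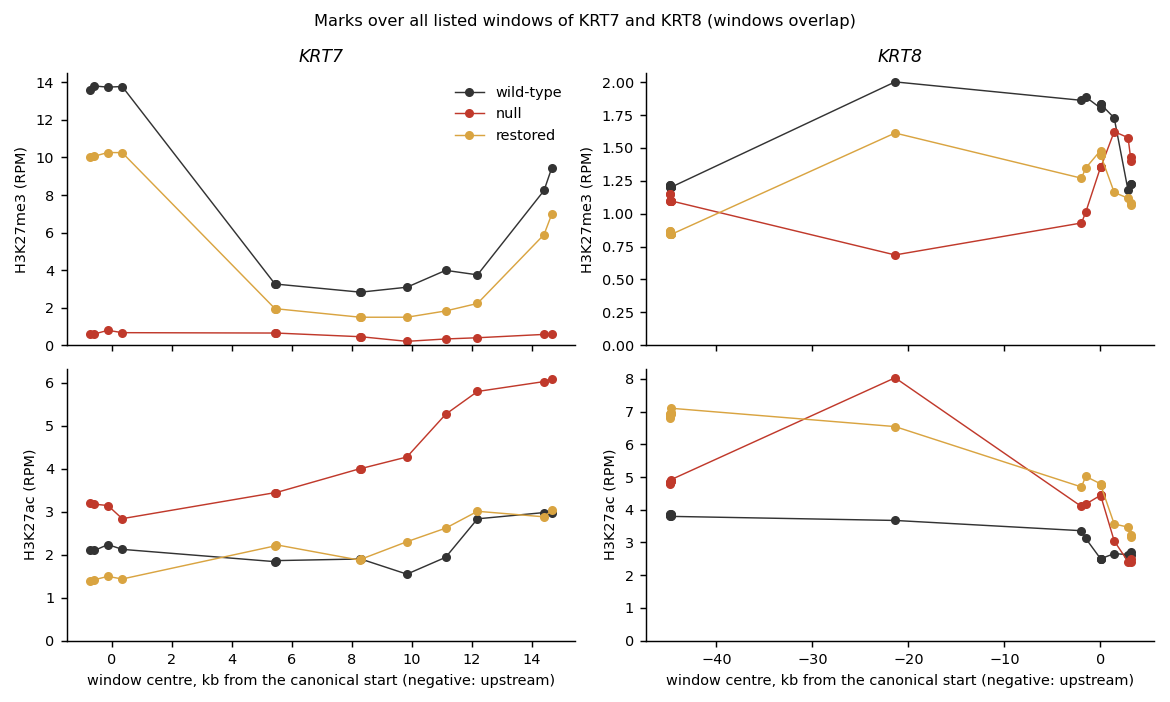
H3K27me3 and H3K27ac in RPM (y axes) in all listed windows of KRT7 and KRT8 by the distance of the window centre from the canonical start in kilobases (x axis), for wild-type, null and restored ESCs. The KRT8 window at 21.4 kb upstream reaches 8.04 RPM of H3K27ac in null against 3.67 RPM in wild-type ESCs, and neighbouring windows overlap.

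Over all keratins the other marks moved less than H3K27me3. H3K27ac was higher in null than in wild-type ESCs at 34 of 54 genes and lower at 20, where 30.6% of all names were lower. By at least 1 it was higher at 0 keratins, where 5.77% of all names rose and 2.85% fell by that much. The median change of H3K27ac was 0.18 beside 0.24 (-0.059 when centred on all names). H3K4me1 was lower by at least 1 at 3 keratins and higher at 0 (3.59% and 1.94% of all names), with a median of -0.15. H3K4me3 was lower by at least 1 at 14 and higher at 0 (11.2% and 1.81%), with a median of -0.65 beside -0.15. The inferred depth per library was only 3.43 M reads for wild-type H3K4me3, against 10.3 to 17.4 M in the other genotypes. At that depth 1 read was worth 0.292 RPM. The depth of each single library is not known. The keratin median of H3K4me3 was 1.81 RPM in wild-type and 0.998 to 1.11 RPM in the other genotypes, beside a median input of 1.51 to 1.60 RPM. The part of that depth in the H3K4me3 difference was not tested. Marked by the same rule for H3K4me3 were 33 keratin windows in wild-type ESCs, or 18.5% against 47.0% of all windows, and they belonged to KRT8 (17), KRT18 (7), KRT19 (5) and KRT7 (4). Keratin input differed between null and wild-type ESCs by a median of -0.04.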

How the data were processed

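RNA was measured in 12 libraries of H9 ESCs (3 for each of 4 genotypes), and chromatin in 21 columns. The labels' processing notes name Trim Galore 0.4.0, Bowtie2 2.2.5 and TopHat2 2.0.12. The authors aligned reads to GRCh38, counted them per gene without strand in SeqMonk, and deposited log2 values of reads per 1000000 reads (RPM), with a gene without a read set to 0.9 of a read. Log2 values were turned back to RPM and all low values were whole reads within 0.1 of a read, and genes without a read were set to 0. The deposited log2 ChIP values are RPM in 5 kb windows. Per the labels, 2 libraries are averaged per histone column and 1 gives EZH2, whereas the study's text describes ChIP values as means of 3 replicates, and the number in the labels was used. No column of per-sample values was left unmapped.

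Differences were fitted across all 20608 genes that averaged 0.1 RPM or more by limma 3.58.1 in R 4.3.3 (lmFit, eBayes with trend, two-sided) on log2(RPM + 0.1) over all 12 libraries, with Benjamini-Hochberg adjustment and a threshold of 0.05. The script was tested on simulated data. The deposited values are log2 RPM, so no count model was used. Other steps used Python 3.11.15, pandas 2.3.3, numpy 2.4.6, scipy 1.17.1 and matplotlib 3.10.9. Libraries of the same number in different genotypes deviated together in 18 of 18 pairs (correlation 0.127 to 0.691, mean -0.20 for different numbers), and the pairing comes from that check and from the numbers in the labels. Alternatives were a pseudocount of 1 RPM, no filter, a filter at 1 RPM, median-ratio scaling, the library block, only the genotypes compared, and each library left out.

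Named were the simple keratins, keratins with a mean of at least 1 RPM or a call, the 3 with the most H3K27me3 or EZH2 in wild-type ESCs, of each list up to 4 called genes and the most abundant, and the 5 genes most like KRT8 and KRT19. The members, lists and tests were chosen with earlier results of these data known.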

Additional observations from a re-analysis of the deposited data

How the results depend on the processing

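The count of keratins higher in null than in restored ESCs, 3 in the values reported, was 0 with a filter at 1 RPM, which leaves out KRT15, KRT17 and KRT80, and 6 with the replicate block, and ran from 0 to 5 with 1 library left out. It was 0 without null library 2, null library 3 or restored library 2. It was 1 without wild-type library 1 or 2, heterozygous library 1 or restored library 1 or 3, and 5 without heterozygous library 3 or null library 1. Against wild-type the count of 5 was 9 without a filter and 2 with a filter at 1 RPM, and 5 to 6 with 1 library left out. The calls added without a filter were KRT6A, KRT6B, KRT9 and KRT16, which had 13, 5, 4 and 53 reads over all 12 libraries. They are near the floor and are no separate support. Between restored and wild-type ESCs the count of 1 was 0 with a pseudocount of 1 RPM, 0 without a filter, 2 with the replicate block, 2 with only these genotypes, and 0 to 2 with 1 library left out. The block changed no call other than those given in the report.

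The median H3K27me3 change between null and wild-type ESCs, -1.31, was -0.81 with a pseudocount of 1 RPM and -0.53 when centred on the median of all gene names. Centring moved H3K27ac from 0.18 to -0.059, and H3K27me3 between restored and wild-type ESCs from -0.22 to 0.0058, a reversed sign. H3K4me3 moved from -0.65 to -0.42 with a pseudocount of 1 RPM. The cause of these moves was not tested. Of single keratins, with no library left out, 191 values kept their side of the threshold, 7 passed it anew and 6 no longer passed. With a call in either fit, 0 reversed, and a change of sign without a call was counted among the 191. KRT10 passed against wild-type with median-ratio scaling (0.67, limma, adjusted p = 0.0301). Genes without a read left at 0.9 of a read and the window nearest the canonical start were alternatives chosen after seeing the data, and the former changed no call of the 9 keratins but called KRT16, at 1.68 against restored (limma, adjusted p = 0.00794). Of the 55 keratins, 46 were below the filter, 32 of them without a read, and at this depth 3 reads were worth 0.0528 to 0.120 RPM.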
